A study of Homo sapiens with 9 samples.

Results

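The comparison described here set induced fibroblasts carrying a hairpin against ARID1B beside uninduced fibroblasts carrying an empty vector, and asked which parts of the transcriptional response to RAS were still present, and at what size, when ARID1B was low. It was chosen by the sample labels and used 6 of the 9 arrays of the series: 3 of shARID1B cells with 4OHT and 3 of vector cells without 4OHT. The other 3 arrays, of vector cells with 4OHT, supplied the size of the response in cells with unaltered ARID1B. All 3 groups were human diploid lung fibroblasts, spelled IRM90 in the labels and known as IMR90, and all carried ER:RAS, an oncogenic RAS fused to an estrogen receptor domain that 4-hydroxytamoxifen (4OHT) switches on. Cells were grown for 7 days, and the labels place every array 6 days after 4OHT, which was given at 100 nM to the 2 induced groups and withheld from the uninduced vector cells. The groups are called uninduced vector cells, induced vector cells and induced shARID1B cells below. The labels did not give the sequence or the number of the hairpins behind the name shARID1B. The design held neither uninduced shARID1B cells, nor a control hairpin, nor cells without ER:RAS that received 4OHT, so effects of the hairpin itself and of 4OHT itself cannot be told apart from those of ARID1B loss and of RAS. The labels did not say whether the 3 arrays of a group came from separate cultures, so p-values measure the spread between these arrays.

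Oncogenic RAS drives normal fibroblasts into oncogene-induced senescence, a lasting arrest in which cell cycle genes are shut down and CDK inhibitors accumulate. Senescent cells also release a mixture of cytokines, chemokines, proteases and growth factors, the senescence-associated secretory phenotype (SASP), which depends largely on NF-kappaB and C/EBP-beta. ARID1B is a DNA-binding subunit of SWI/SNF, the complex that remodels nucleosomes to open chromatin.

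Values are log2 expression levels from Affymetrix whole-transcript arrays, 1 probe set for each of 18417 genes. Array medians lay between 6.70 and 6.79 and arrays of a group correlated at 0.9955 to 0.9972 across genes. The median over all probe sets was 6.75, and a mean below it is not shown to be above background, so a fold against such a group is uncertain. The remaining change is the mean of induced shARID1B cells minus that of uninduced vector cells, the response is induced minus uninduced vector cells, and the difference is induced shARID1B minus induced vector cells. All are log2 differences from 1 limma fit, given ± SE with p adjusted by Benjamini-Hochberg over all genes, and an adjusted p below 0.05 counted as a call. Identical values on all 3 arrays of a group occurred in 721 genes, which is said where such a gene is described.

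ARID1B itself read 8.93, 8.85 and 8.95 in uninduced vector cells, 8.63, 8.96 and 8.77 in induced vector cells and 8.07, 7.96 and 8.13 in induced shARID1B cells. The 3 shARID1B arrays lay below all 6 others. The remaining change of -0.86 ± 0.08 (adjusted p = 1.26e-05) corresponds to a level 44.7% lower, so the transcript was lowered and still present. Of 10 fibroblast markers, each with a mean above 6.75 in both groups, 7 fell and 0 rose (6 without PDGFRB, whose call was lost when any 1 of 5 of the 6 compared arrays, all but replicate 1 of the uninduced vector cells, was left out), and the log2 of their summed level was 14.87 to 14.91 in induced shARID1B cells against 15.15 to 15.29 in uninduced vector cells. Induced vector cells showed a like fall, with 9 of the 10 markers lower than in uninduced ones and a summed level of 14.82 to 14.88. Among the markers of other cell types, 1 of 9 epithelial (CLDN4, 0.50), 1 of 7 leukocyte (CD68, 0.63) and 1 of 10 endothelial genes (PECAM1, 0.31) rose, the last not without replicate 3 of the uninduced vector cells (0.22) or replicate 2 of the induced shARID1B cells (0.29), and 1 epithelial gene (MUC1, -0.50) fell. The leukocyte marker PTPRC had means of at most 4.04 and the epithelial marker EPCAM of at most 5.93, both below the median of all probe sets, as were the means of PECAM1 and the uninduced mean of CLDN4. The summed leukocyte level (log2), 11.57 to 11.74 against 11.05 to 11.18, moved with CD68, a protein of lysosomal membranes that is not particular to leukocytes, while the other 6 leukocyte markers were not called. In bulk RNA, fewer cells expressing a gene and less RNA per cell cannot be told apart.

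Of 18417 genes, 5800 (31.5%) were called between induced shARID1B and uninduced vector cells, 2867 higher (15.6%) and 2933 lower (15.9%). These shares are the background for the counts of rises and falls in each gene list below. With the median of each array subtracted the split became 3452 higher and 2087 lower, from 49.4% to 62.3% higher, so counts of small changes in 1 direction depend on the centring. The median over all genes was -0.03 for the remaining change and -0.01 for the response. A change of at least 2-fold was called for 557 genes (3.02%), 291 higher (1.58%) and 266 lower (1.44%), and in each of the 557 the 3 arrays of one group lay wholly above those of the other.

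The response of the induced vector cells comprised 548 genes called at 2-fold or more (2.98%), 249 higher (1.35%) and 299 lower (1.62%). Just inside that line were CC2D2A (-1.001) and EHHADH (-1.004), and just outside it CDK2 (0.9998) and RRAGB (-0.9999). The remaining change was called in the direction of the response for 244 of the 249 and for 293 of the 299. The share of the log2 response still present in induced shARID1B cells had a median of 96.4% (quartiles 74.5 and 116.0) among the higher genes and 87.0% (quartiles 69.3 and 104.7) among the lower ones. Both contrasts share the 3 uninduced arrays, and choosing genes for a large response on the induced vector arrays tends to leave the remaining change smaller than the response, so these shares are descriptions without a test.

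Each response gene was then placed by the difference between the induced groups. Full size meant that the 95% interval of the difference lay within 1.3-fold either way, whether or not the difference was called, and 184 genes (33.6%), 86 higher and 98 lower, met it. Reduced meant a difference called toward the uninduced level with the remaining change still called, which held for 185 genes (33.8%), 79 higher and 106 lower, with a median of 64.5% of the response left and a range of 21.2% to 93.7%. The share left in full-size genes ran from 76.9% to 122%. The full-size and reduced classes therefore overlap in the share left and do not rank genes by it. A larger response, with the difference called away from the uninduced level, was found for 87 genes (15.9%), 60 higher and 27 lower, with a median of 133% left. The response was gone for 7 genes, whose remaining change was not called and lay with its interval within 1.3-fold of 0, and 1 gene passed its starting level. The other 84 genes (15.3%) were unresolved at the precision of 3 arrays, where the median half-width of a 95% interval was 0.15. Leaving out replicate 3 of the induced vector cells gave 13 genes classed as gone, leaving out replicate 2 or 3 of the induced vector cells or replicate 2 of the uninduced ones gave 2 genes past the start, and the unresolved genes numbered 131 without replicate 2 of the induced vector cells and 132, 148 and 141 without replicates 1, 2 and 3 of the induced shARID1B cells. Across all genes the difference was called higher for 1773 (9.63%) and lower for 1122 (6.09%). These are the background for counts of list members higher or lower than in induced vector cells.

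**Figure D1:**
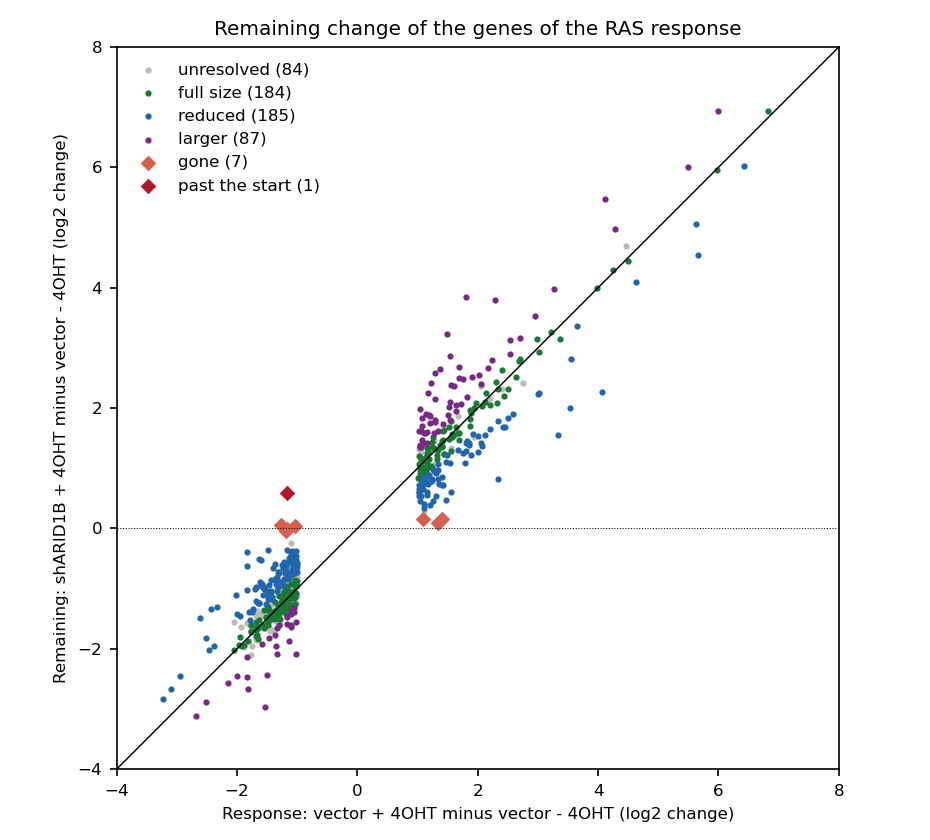
Remaining change (vertical axis, log2, induced shARID1B minus uninduced vector cells) against the response (horizontal axis, log2, induced minus uninduced vector cells) for the 548 response genes, coloured by class, with the diagonal marking equal size. Most points lie along the diagonal from IL1B near 7 down to the genes near -3, and the 7 genes classed as gone lie close to the dotted line at 0, ARHGAP20 above it at 0.58.

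CDK inhibitors such as p15INK4b, p16INK4a and p21 enforce the arrest of the cell cycle. Of 7 genes measured under the name of CDK inhibitors, 3 rose and 1 (CDKN3, -1.40, to a mean below 6.75) fell. Only 1 of the 7, CDKN1A, differed between the induced groups, and it was lower in induced shARID1B cells. CDKN2B, which encodes p15INK4b, read 8.95, 8.80 and 8.81 in uninduced vector cells, 10.96, 11.04 and 10.96 in induced vector cells and 11.08, 11.10 and 11.12 in induced shARID1B cells. Its remaining change of 2.25 ± 0.05 (adjusted p = 3.68e-10) was full size beside a response of 2.13. CDKN1A, which encodes p21 and is a target of p53, read 11.11, 11.15 and 11.10 in uninduced, 11.83, 11.86 and 11.72 in induced vector and 11.40, 11.33 and 11.26 in induced shARID1B cells. The 3 groups did not overlap, and the rise over uninduced cells was 0.21 ± 0.06 (adjusted p = 0.0146) against 0.69 in vector cells, a difference of -0.48 (adjusted p = 0.000279). Without replicate 1 of the induced shARID1B cells the remaining change of CDKN1A was 0.17 and was no longer called (adjusted p = 0.0636). CDKN2A, which encodes p16INK4a and ARF, rose by 0.35 ± 0.05 (adjusted p = 0.000544) against 0.49, and its difference of -0.14 was not called (adjusted p = 0.108, 95% interval -0.27 to -0.02). ENTPD7, an intracellular nucleotidase, rose by 0.73 against 0.99, with a called difference of -0.26 (adjusted p = 0.0069). SLC31A2, which encodes a copper transporter-like protein, read 9.71, 9.75 and 9.65 in uninduced vector cells and 9.66, 9.63 and 9.62 in induced shARID1B cells, a change of -0.06 that was not called (adjusted p = 0.436), where the response was 0.47. Of 21 p53 targets measured, 7 rose and 4 fell, with a median of 0.09 against 0.08 in the response. Over all genes 15.6% rose and 15.9% fell. Against induced vector cells 4 of the 21 were higher and 4 lower, where 9.63% of all genes were higher and 6.09% lower. The 1 p53 target in the 2-fold response was reduced.

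The genes of mitosis stayed down. Of 51 measured, 47 fell and 0 rose between induced shARID1B and uninduced vector cells, with a median of -1.24 against -1.10 in the response and -0.03 over all genes. Among the 29 in the response, 15 were full size, 4 reduced, 2 larger, 8 unresolved and 0 gone. Only 31 of the 51 had an induced shARID1B mean above 6.75, and 37 fell among the genes left after dim ones were dropped. Where both induced means lay below 6.75, as for the full-size DLGAP5 (6.37 and 6.34), the class is uncertain. KIF20A, a kinesin of cytokinesis, read 8.97, 8.74 and 8.92 in uninduced and 7.01, 6.95 and 6.84 in induced shARID1B cells, a change of -1.94 ± 0.08 (adjusted p = 2.45e-08) with the groups well apart. PLK1, the kinase that drives mitotic entry and spindle assembly, read 9.59, 9.66 and 9.57 in uninduced and 8.05, 7.98 and 8.13 in induced shARID1B cells, a change of -1.55 against -1.48 in vector cells. CDC20, the activator of the anaphase-promoting complex, read 8.83, 9.03 and 8.96 in uninduced and 7.47, 7.61 and 7.47 in induced shARID1B cells, and its change of -1.43 was larger than the response of -1.10 (difference -0.32, adjusted p = 0.0153). The reduced falls included CDK1, the mitotic cyclin-dependent kinase (-1.42 against -2.0), TOP2A, topoisomerase II alpha (-1.25 against -1.65), and NUSAP1, a spindle protein (-1.24 against -1.64). The induced means of CDK1 were below 6.75, so its folds are uncertain. The difference of CDC20 was no longer called without replicate 2 of the induced vector cells (-0.26) or replicate 1 or 3 of the induced shARID1B cells (-0.30 in both), nor that of TOP2A without replicate 1 (0.30) or 2 (0.41) of the induced vector cells or replicate 2 or 3 (0.39 in both) of the induced shARID1B cells.

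Mitotic genes are repressed together in arrested cells through promoter elements that include the cell cycle homology region (CHR), searched here as TTTGAA, and the CCAAT box, searched as CCAAT. Both strands of the 250 bases before each gene's start were read from RefSeq on GRCh38.p14, where 14239 of the 18417 genes had an entry, and no match of one motif can lie within a match of the other. A CHR match stood in 25 of 45 mitotic promoters (55.6%) against 10.6% of all promoters, and a CCAAT match in 33 of 45 (73.3%) against 34.4%. Of the 42 mitotic genes with a promoter that fell, 23 held a CHR and 30 a CCAAT match. A match describes these letters only. The windows of PLK1 (chr16:23678639-23678888, plus strand) and CDC20 (chr1:43358731-43358980, plus strand) are printed because they belong to a full-size and a larger fall, with CHR and CCAAT matches in capitals.
PLK1: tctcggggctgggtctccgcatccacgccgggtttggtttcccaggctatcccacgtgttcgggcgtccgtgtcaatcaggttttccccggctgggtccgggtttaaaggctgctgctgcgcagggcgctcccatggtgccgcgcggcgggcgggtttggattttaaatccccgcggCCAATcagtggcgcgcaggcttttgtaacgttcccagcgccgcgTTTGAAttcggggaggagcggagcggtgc
CDC20: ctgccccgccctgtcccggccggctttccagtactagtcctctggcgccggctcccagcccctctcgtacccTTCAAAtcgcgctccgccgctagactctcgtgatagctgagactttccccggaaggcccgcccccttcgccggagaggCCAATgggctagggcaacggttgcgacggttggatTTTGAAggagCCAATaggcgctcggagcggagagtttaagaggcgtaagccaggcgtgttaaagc

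DNA replication genes fell less. Of 48 measured, 30 fell and 4 (PCNA, RFC2, CCNE1 and RPA2) rose, with a median of -0.39 against -0.43, and of the 8 in the response 2 were full size, 2 reduced and 4 unresolved. GINS1, a subunit of the replicative helicase, fell by 0.95 against 0.80 in vector cells. POLE2, a subunit of DNA polymerase epsilon, read 7.06, 6.89 and 6.66 in uninduced cells and 6.28 on each of the 3 induced shARID1B arrays, identical values, and its change of -0.59 was reduced from -1.36, with induced means below 6.75. POLD3, a subunit of DNA polymerase delta, had a remaining change of 0.12 (adjusted p = 0.387) where the response was -0.68, and its difference of 0.79 was called (adjusted p = 0.000291). CDC6, which loads the helicase, fell by 1.06 against 0.49, to a mean below 6.75. Among the nucleotide synthesis enzymes 9 of 31 rose and 11 fell, a split that became 11 and 9 with array medians subtracted. Against induced vector cells 8 of the 31 were higher and 1 lower, where 9.63% of all genes were higher and 6.09% lower. RRM2, the inducible subunit of ribonucleotide reductase, kept its fall at full size (-1.31 against -1.19), and TYMS, thymidylate synthase, was reduced (-0.59 against -1.01). Of 17 genes of the nuclear lamina and senescence chromatin 2 (HMGA1 and EED) rose and 7 fell. LMNB1, lamin B1, whose loss is a mark of senescence, changed by -0.84 (adjusted p = 0.000319) against -0.82, with induced means below 6.75.

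The secreted factors remained high in induced shARID1B cells. Over the 5 lists of cytokines, chemokines, proteases, growth factors and IGF-binding proteins, 51 of 80 measured genes rose and 10 fell, with a median of 0.62 against 0.58 in the response. Of the 35 in the response, 14 were full size, 10 larger, 10 reduced, 1 unresolved and 0 gone. The individual genes therefore moved both ways from the diagonal, with 20 of the 80 higher and 17 lower than in induced vector cells. The lists moved differently. Of 14 cytokines 8 rose and 1 fell, with a median of 0.59 against 0.99 in the response, and 1 was higher and 4 lower than in induced vector cells. The 25 growth factors had a median of 0.81 against 0.37, with 8 higher and 7 lower than in induced vector cells.

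IL1B, the cytokine that drives the paracrine arm of the program, read 5.89, 5.80 and 5.42 in uninduced vector cells, 12.50, 12.50 and 12.58 in induced vector cells and 12.58, 12.68 and 12.66 in induced shARID1B cells. Its remaining change, 6.94 ± 0.10 (adjusted p = 1.05e-11), was full size, with a difference interval of -0.11 to 0.34. It lay beside that of CST1, a cysteine protease inhibitor (6.93 against 6.00), at the top of all rises, and as both uninduced means were below 6.75 these folds and their order are uncertain. IL1A, the membrane-bound trigger of the secretory program, read 6.01, 5.72 and 5.64 in uninduced and 11.79, 11.82 and 11.82 in induced shARID1B cells, a change of 6.03 ± 0.08 against 6.43, and was reduced to 93.7% of the log2 response (difference -0.41, adjusted p = 0.00719), again from an uninduced mean below 6.75. IL6 read 7.79, 7.90 and 7.81 in uninduced cells, 11.14, 11.05 and 11.11 in induced vector cells and 11.79, 11.84 and 11.80 in induced shARID1B cells. The 3 groups of IL6 values did not overlap, and its rise of 3.98 ± 0.05 was larger than the response of 3.27 (difference 0.71, adjusted p = 1.01e-05). TNFSF15, a TNF family ligand with an uninduced mean below 6.75, was reduced (5.05 against 5.62), as was CSF3, granulocyte colony-stimulating factor (0.86 against 1.41). LIF and IL11, both cytokines that signal through gp130, were full size at 1.69 and 1.52.

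Among 19 chemokines 13 rose and 1 fell (CXCL12, a ligand of CXCR4), and of the 8 in the response 2 were full size, 4 larger, 1 reduced and 1 unresolved. CXCL8 (interleukin 8), which draws neutrophils through CXCR2, read 7.07, 6.72 and 6.53 in uninduced, 12.71, 12.68 and 12.85 in induced vector and 12.64, 12.79 and 12.75 in induced shARID1B cells. The 2 induced groups overlapped, and its remaining change of 5.95 ± 0.12 was full size (difference interval -0.27 to 0.24). CXCL1, another CXCR2 ligand, read 7.30, 7.16 and 7.25 in uninduced and 11.80, 11.95 and 12.05 in induced shARID1B cells, a rise of 4.70 against 4.47 that was unresolved, its difference of 0.23 (adjusted p = 0.0762) being called without replicate 1 of the induced vector cells (0.28) or of the induced shARID1B cells (0.29). CXCL10, which draws T cells through CXCR3 and is induced by interferon, read 6.53, 6.58 and 6.71 in uninduced, 10.65, 10.73 and 10.79 in induced vector and 12.17, 12.03 and 12.04 in induced shARID1B cells. Its rise was 5.47 ± 0.07 against 4.11, both uncertain because the uninduced mean was below 6.75, and the induced shARID1B cells stood 1.36 above induced vector cells (adjusted p = 2e-06). CXCL11, the other CXCR3 ligand named here, rose by 2.65 against 1.37 with both vector means below 6.75. CXCL5, a ligand of CXCR2, was reduced to 51.6% (0.60 against 1.16).

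An NF-kappaB consensus was found in the 250 bases before the start of 8 of 14 chemokine genes (57.1%), all 8 among the 11 with a promoter that rose, against 11.1% of all promoters. It was found in 1 of 10 cytokine genes, IL6, and in 5 of 15 NF-kappaB and C/EBP factor genes (33.3%). In CXCL1, CXCL2, CXCL3, CXCL5 and CXCL6 the matches begin 91 to 77 bases before the start, so these genes may not count as independent. The window of CXCL1 (chr4:73869143-73869392, plus strand) holds 2 overlapping matches, in capitals, and that of CXCL10 (chr4:76023498-76023747, minus strand) holds 2 such matches and 1 interferon response core, which is 2 copies of GAAA separated by any 2 bases and comes first in the line. They are shown because the rise of CXCL1 was not told apart from that in vector cells and the rise of CXCL10 was larger.
CXCL1: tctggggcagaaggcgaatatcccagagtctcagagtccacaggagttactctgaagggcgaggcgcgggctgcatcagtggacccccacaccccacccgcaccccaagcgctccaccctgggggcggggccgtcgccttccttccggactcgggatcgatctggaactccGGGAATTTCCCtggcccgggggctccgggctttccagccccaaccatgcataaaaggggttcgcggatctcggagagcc
CXCL10: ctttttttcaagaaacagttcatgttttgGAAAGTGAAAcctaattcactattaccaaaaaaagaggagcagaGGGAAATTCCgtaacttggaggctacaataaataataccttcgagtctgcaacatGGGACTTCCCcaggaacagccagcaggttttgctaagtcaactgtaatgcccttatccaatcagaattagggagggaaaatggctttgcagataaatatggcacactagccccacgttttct

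Of 16 matrix proteases and inhibitors 12 rose and 2 fell (MMP2 and its inhibitor TIMP2). MMP3, stromelysin 1, read 5.96, 5.83 and 6.04 in uninduced, 11.65, 11.54 and 11.62 in induced vector and 10.47, 10.51 and 10.47 in induced shARID1B cells. Its rise of 4.54 ± 0.06 was reduced from 5.66 (difference -1.12, adjusted p = 3.1e-06), and no array of one group overlapped another. MMP1, interstitial collagenase (1.38 against 1.36), and the plasminogen activators PLAU (1.19 against 1.13) and PLAT (1.15 against 1.07) were full size. MMP12, macrophage elastase, exceeded the response (2.41 against 1.22), MMP16, a membrane-bound protease, did so too (2.07 against 1.71), and MMP10 was reduced (0.72 against 1.42). The uninduced means of MMP3, MMP10 and MMP12 were below 6.75, as were the induced vector mean of MMP12 and the induced shARID1B mean of MMP10.

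Of 25 growth factors 15 rose and 6 fell. The EGF family ligands NRG1 (3.14 against 2.98) and EREG (2.62 against 2.40), VEGFA (1.79 against 1.56) and STC1, a secreted glycoprotein hormone (2.78 against 2.69), were full size. The differences of EREG (0.22, adjusted p = 0.0291) and VEGFA (0.23, adjusted p = 0.0118) were called higher, though within the width of that class. GDF15, a stress-induced member of the TGF-beta family, read 11.08, 10.95 and 10.96 in uninduced cells, 13.38, 13.28 and 13.37 in induced vector cells and 12.78 on each induced shARID1B array, identical values, and was reduced (1.78 against 2.34). ANGPT2, a ligand of the TIE2 receptor, read 5.32, 5.72 and 5.63 in uninduced, 7.13, 7.48 and 7.47 in induced vector and 9.42, 9.46 and 9.31 in induced shARID1B cells, a rise of 3.84 ± 0.12 against 1.81, with its uninduced mean below 6.75. EDN1, the vasoconstrictor endothelin 1, read 9.22, 9.14 and 9.14 in uninduced, 9.55, 9.66 and 9.41 in induced vector and 8.22, 8.39 and 8.21 in induced shARID1B cells. It rose in induced vector cells (0.37, adjusted p = 0.0023) and fell below the uninduced level in induced shARID1B cells (-0.89 ± 0.07, adjusted p = 4.52e-06), with no overlap between the groups. PDGFD, a platelet-derived growth factor, kept 32.9% of its fall (-0.53 against -1.60). Among 6 IGF-binding proteins 3 rose and 0 fell. IGFBP2 rose by 1.0 against 0.22, and IGFBP7 had a remaining change of 0.08 (adjusted p = 0.209) against a response of 0.39.

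**Figure D2:**
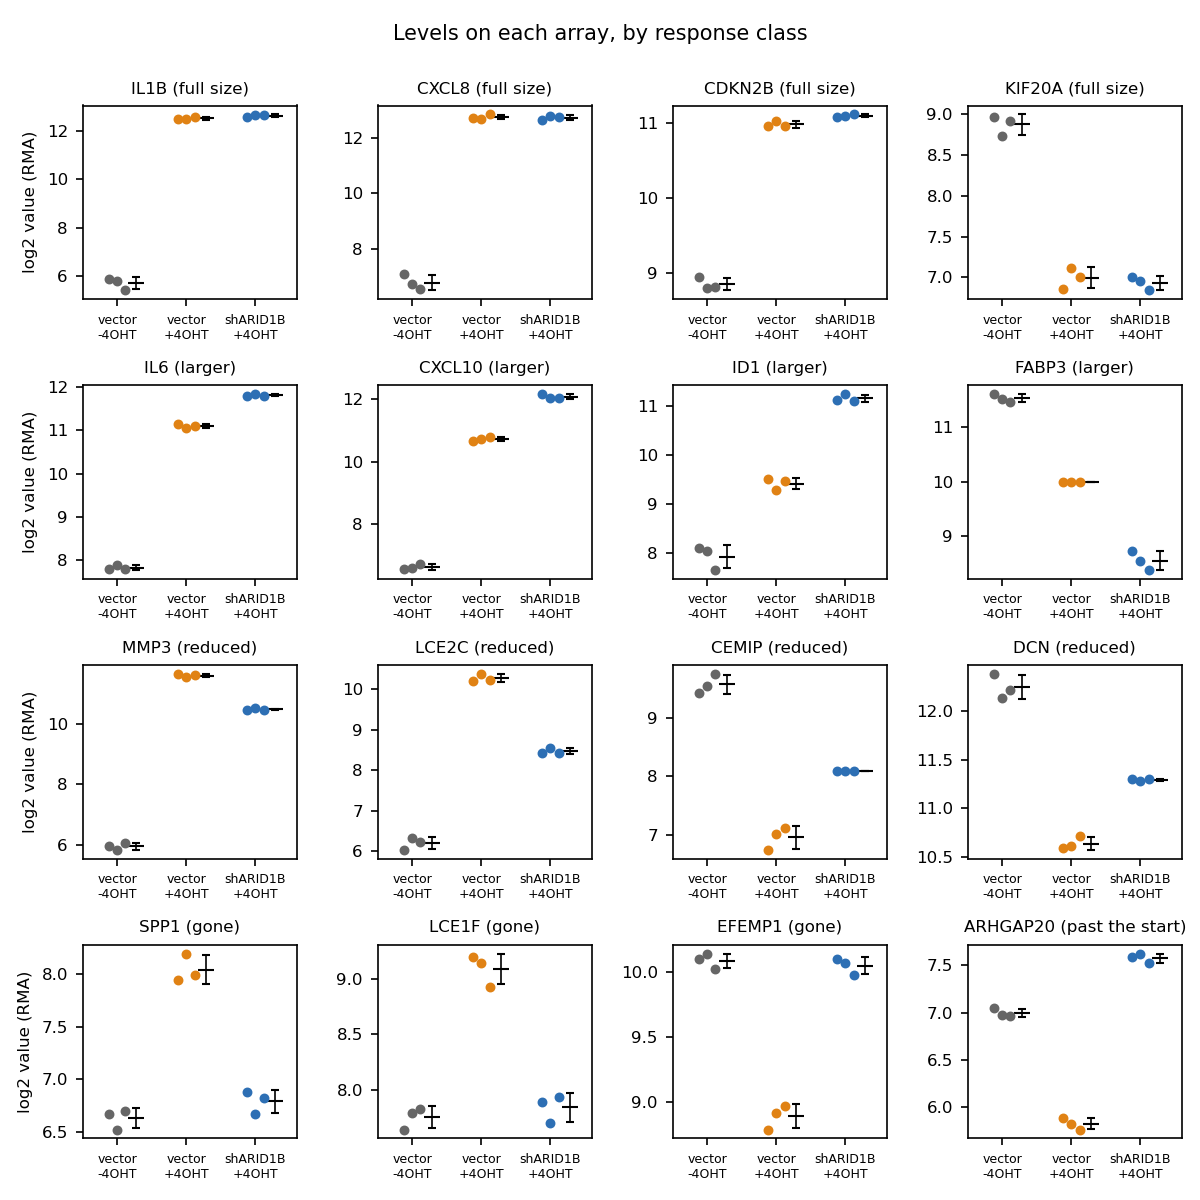
Log2 levels on each array (dots) with group mean ± SD (black, n = 3) for 4 genes of the full-size, larger and reduced classes and for 3 genes classed as gone beside ARHGAP20, which passed its starting level. Each panel has its own vertical axis, which does not start at 0. Induced shARID1B arrays overlap or lie close to induced vector arrays in the top row, lie beyond them in the second row, lie between both vector groups in the third, and lie at or past the uninduced arrays in the bottom row. FABP3 in induced vector cells has 3 identical values.

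Transcription factors and feedback genes of these pathways rose as well. Of 18 NF-kappaB and C/EBP factors 12 rose and 0 fell, with a median of 0.43 in both contrasts. NFKBIZ, a co-activator of secondary NF-kappaB targets, read 7.33, 7.07 and 7.30 in uninduced and 9.66, 9.65 and 9.70 in induced shARID1B cells, a full-size rise of 2.44, and the feedback inhibitor TNFAIP3 exceeded its response (1.88 against 1.5). CEBPB, which encodes C/EBP-beta, rose by 0.87 against 0.81, and its difference of 0.05 was not called (adjusted p = 0.6). Of 24 genes of the RAS-ERK response 12 rose and 3 fell, with a median of 0.25 against 0.42, and 2 were higher and 7 lower than in induced vector cells. The feedback inhibitors SPRY4 (1.97 against 1.87) and DUSP6 (1.70 against 1.87) were full size, DUSP4, a nuclear ERK phosphatase, was reduced (0.55 against 1.16), and EPHA4, a receptor tyrosine kinase, had a remaining change of 0.02 (adjusted p = 0.885) against a response of 0.61. Of 17 early response factors 12 rose and 3 fell. NR4A2, an orphan nuclear receptor, read 8.13, 8.31 and 8.53 in uninduced, 9.24, 9.38 and 9.30 in induced vector and 11.04, 11.15 and 10.97 in induced shARID1B cells, so its rise was 2.73 ± 0.09 against 0.98.

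Several genes of prostaglandin synthesis rose further than in vector cells. PLA2G4A, the phospholipase that frees arachidonic acid, also low in uninduced cells (mean below 6.75), rose by 1.58 against 1.12. PTGS2 (COX-2) read 5.87, 5.93 and 6.26 in uninduced, 11.56, 11.42 and 11.55 in induced vector and 11.95, 12.03 and 12.09 in induced shARID1B cells, a rise of 6.00 ± 0.09 against 5.49 from an uninduced mean below 6.75. PTGES, the synthase of prostaglandin E2, read 8.25, 8.22 and 8.20 in uninduced, 8.68, 8.67 and 8.65 in induced vector and 10.05, 10.16 and 10.23 in induced shARID1B cells, with a rise of 1.92 ± 0.05 (adjusted p = 1.2e-09) against 0.44. The E2 receptor gene PTGER2 kept 64.5% of its fall (-1.01 against -1.56). In all 6 of 13 members rose and 4 fell, while 6 were higher and 3 lower than in induced vector cells.

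**Figure D3:**
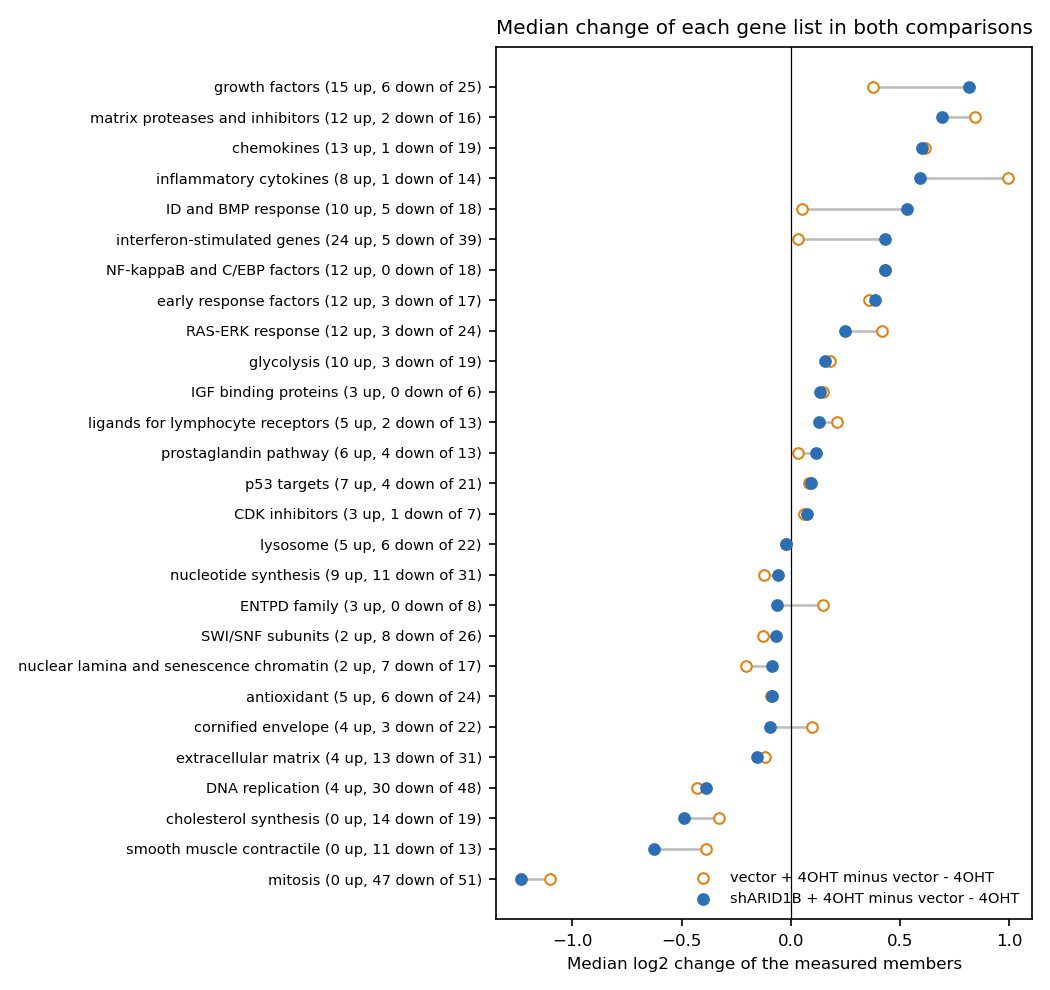
Median log2 change of each gene list (one row each) for the remaining change (filled, induced shARID1B minus uninduced vector cells) and the response (open, induced minus uninduced vector cells), with the counts of members that rose and fell in the remaining change. The medians for mitosis are -1.24 and -1.10, and those for interferon-stimulated genes 0.43 and 0.03. No list was tested, and the 2 contrasts share the uninduced arrays.

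Interferon-stimulated genes, which encode antiviral effectors and sensors, rose in induced shARID1B cells more often than they fell, against either vector group. Of 39 measured, 24 rose and 5 (IFIT2, IFITM2, SAMD9L, TRIM22 and UBA7) fell, with a median of 0.43, whereas the response had a median of 0.03 with 9 higher and 10 lower. Against induced vector cells 24 were higher and 0 lower, where 9.63% of all genes were higher. MX1, a dynamin-like antiviral GTPase, read 7.05, 6.98 and 7.30 in uninduced, 7.45, 7.53 and 7.70 in induced vector and 9.13, 8.72 and 8.89 in induced shARID1B cells. It rose by 1.80 ± 0.11 (adjusted p = 5.21e-07) against 0.45, and the groups did not overlap. IFITM1, which blocks virus entry, read 10.90, 10.88 and 10.92 in uninduced, 11.27, 11.10 and 11.27 in induced vector and 12.26, 12.06 and 12.05 in induced shARID1B cells, a rise of 1.22 ± 0.07 against 0.31. IFI6, a mitochondrial antiapoptotic protein, read 10.85, 10.92 and 11.01 in uninduced, 11.53, 11.59 and 11.50 in induced vector and 12.30, 11.84 and 12.04 in induced shARID1B cells, a rise of 1.13 ± 0.10 against 0.61. The oligoadenylate synthetases OAS1 (1.49) and OAS2 (1.58) rose from uninduced means below 6.75, and USP18, which restrains interferon signalling, rose by 1.46. IFIT1, a sensor of viral RNA, fell in induced vector cells (-0.51, adjusted p = 0.0359) and rose in induced shARID1B cells (0.58, adjusted p = 0.0209), a rise that was no longer called without replicate 2 (0.54) or 3 (0.61) of the uninduced vector cells or replicate 1 of the induced shARID1B cells (0.40). Of the 2 members in the 2-fold response, IFIT2 and UBA7, both falls were reduced, with induced means of IFIT2 below 6.75. In 20 of the 24 that rose, replicate 1 was the highest of the induced shARID1B arrays, and the median over the 39 members relative to the uninduced mean was 0.51 on that array and 0.37 on each of the other 2. In each of the 24 every induced shARID1B array lay above every uninduced array. Such a lack of overlap held for 5713 of all 5800 called genes, so it adds little to the calls.

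The interferon response core stood in 19 of 30 promoters of this list (63.3%) against 2.57% of all promoters, and in 14 of the 22 with a promoter that rose. The share among those that rose was about that of the whole list, so the core did not set them apart within it. As for the other motifs above, a match describes these letters only. The windows of IFI6 (chr1:27672193-27672442, minus strand) and IFITM1 (chr11:313790-314039, plus strand) are printed because both genes rose further than in vector cells, IFI6 with 3 matches and IFITM1 with 1, in capitals.
IFI6: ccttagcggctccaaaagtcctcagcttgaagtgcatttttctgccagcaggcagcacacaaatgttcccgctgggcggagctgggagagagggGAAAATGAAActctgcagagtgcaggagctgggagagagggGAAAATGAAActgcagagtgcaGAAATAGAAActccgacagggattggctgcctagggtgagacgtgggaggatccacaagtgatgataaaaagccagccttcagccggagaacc
IFITM1: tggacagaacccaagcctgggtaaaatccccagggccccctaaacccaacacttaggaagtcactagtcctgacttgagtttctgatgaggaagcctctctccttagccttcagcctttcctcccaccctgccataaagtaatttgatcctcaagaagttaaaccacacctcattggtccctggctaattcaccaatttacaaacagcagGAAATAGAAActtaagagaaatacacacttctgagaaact

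The ID genes encode helix-loop-helix proteins that block differentiation factors and are classical targets of BMP signalling. ID1 read 8.10, 8.04 and 7.66 in uninduced, 9.51, 9.29 and 9.47 in induced vector and 11.13, 11.25 and 11.11 in induced shARID1B cells, without overlap, a rise of 3.23 ± 0.11 against 1.49. ID3 rose by 2.59 ± 0.07 against 1.3 from an uninduced mean below 6.75. ID2 read 9.77, 9.68 and 9.75 in uninduced, 9.73, 9.87 and 9.88 in induced vector and 10.82, 10.80 and 10.87 in induced shARID1B cells, so that it rose by 1.09 ± 0.06 where the response was 0.09 and not called (adjusted p = 0.26). Among the ligands, BMP2 read 7.58, 7.16 and 7.39 in uninduced and 11.35, 11.41 and 11.38 in induced shARID1B cells and was full size (4.00 against 3.98), and BMP6 rose by 1.25 where the response of 0.23 was not called (adjusted p = 0.186), with both vector means below 6.75. The BMP antagonist GREM1 read 12.37, 12.35 and 12.33 in uninduced and 11.51, 11.61 and 11.58 in induced shARID1B cells, a change of -0.78 ± 0.05 (adjusted p = 3.52e-07) where the response of -0.13 was not called (adjusted p = 0.0621). Of the 18 members 10 rose and 5 (BAMBI, BMPER, GREM1, FST and BMP4) fell, 9 were higher and 3 lower than in induced vector cells, and the median was 0.53 against 0.05.

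**Figure D4:**
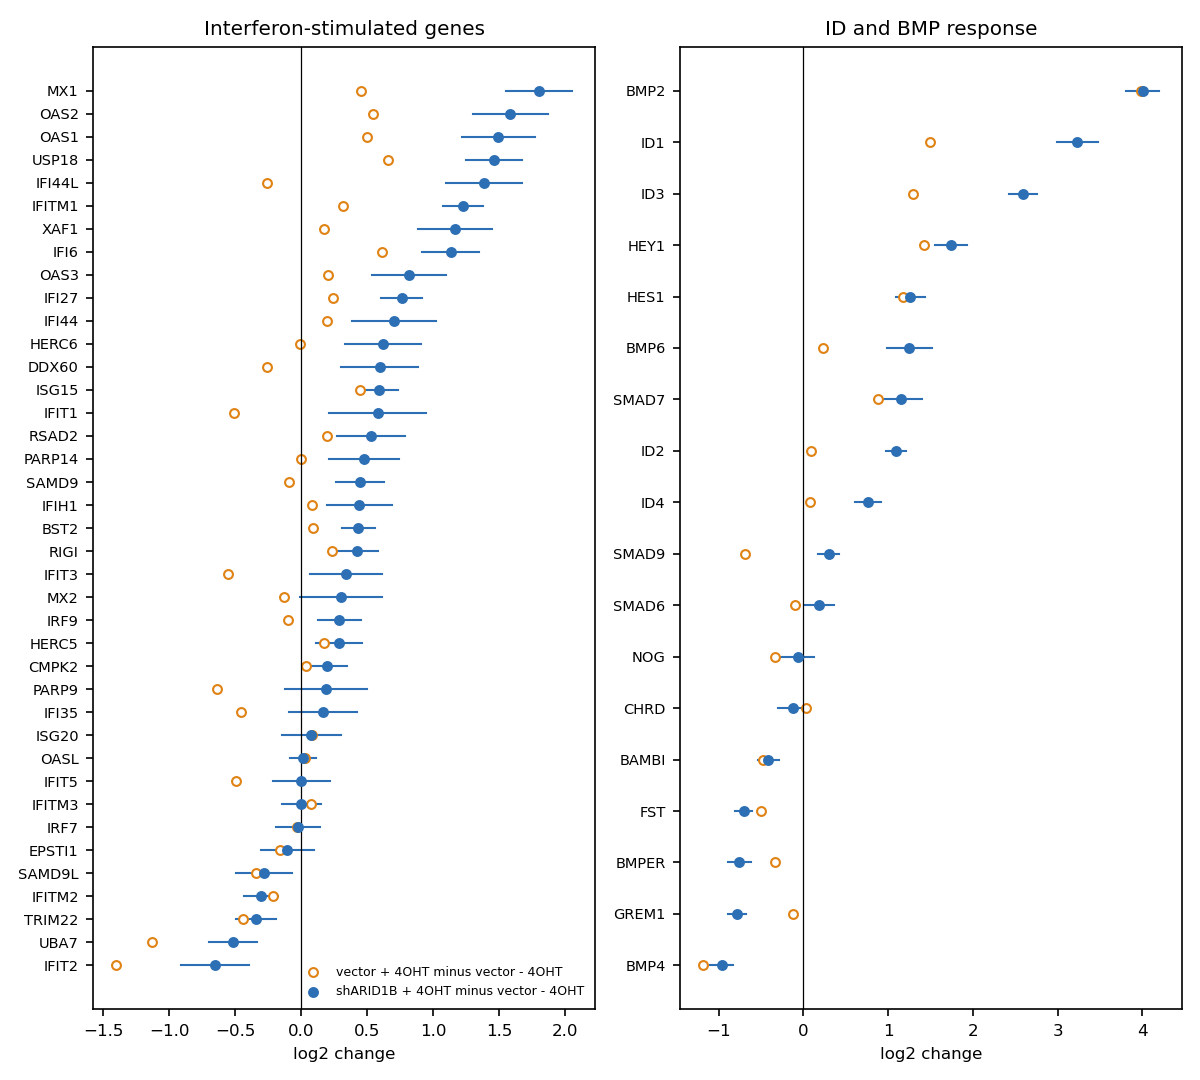
Remaining change (filled, log2, with 95% interval) and response (open, log2) of each measured interferon-stimulated gene (left, 39) and each gene of the ID and BMP list (right, 18). Filled points lie to the right of the open ones for 24 called interferon-stimulated genes, and on the right those of ID1 and ID3 lie furthest from theirs.

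Among the genes of the 2-fold response, 7 lost it. SPP1 (osteopontin), a secreted phosphoprotein of the matrix, read 6.67, 6.53 and 6.70 in uninduced vector cells, 7.94, 8.19 and 7.99 in induced vector cells and 6.88, 6.67 and 6.83 in induced shARID1B cells. Its induced shARID1B arrays overlapped the uninduced ones, with a remaining change of 0.16 ± 0.08 (adjusted p = 0.175) against 1.40, and its uninduced mean was below 6.75. LCE1F, a protein of the cornified envelope, read 7.64, 7.79 and 7.83 in uninduced, 9.20, 9.14 and 8.93 in induced vector and 7.89, 7.70 and 7.94 in induced shARID1B cells, a remaining change of 0.09 (adjusted p = 0.495) against 1.34. NRK, a kinase of the germinal centre family, had 0.16 (adjusted p = 0.0738) against 1.09, though with 0.22 it was called when array medians were subtracted, and with 0.16 in the fit to the 6 compared arrays, among the genes left after dim ones were dropped, and without replicate 1 of the induced vector cells. The NRK arrays of induced shARID1B cells (8.46, 8.55 and 8.53) all lay above the uninduced ones (8.42, 8.29 and 8.36). Among falls that were gone, EFEMP1 (fibulin 3), an extracellular glycoprotein, read 10.10, 10.13 and 10.02 in uninduced, 8.79, 8.91 and 8.97 in induced vector and 10.10, 10.07 and 9.97 in induced shARID1B cells. Its uninduced and induced shARID1B arrays overlapped, with -0.04 ± 0.06 (adjusted p = 0.676) left of a response of -1.19. CHRM2, a muscarinic acetylcholine receptor (0.06 against -1.27), HSPA2, a chaperone of the HSP70 family (-0.02 against -1.16), and PLSCR4, a phospholipid scramblase (0.04 against -1.04), completed the 7. ARHGAP20, a GTPase-activating protein, read 7.05, 6.97 and 6.97 in uninduced, 5.88, 5.83 and 5.76 in induced vector and 7.59, 7.62 and 7.52 in induced shARID1B cells, so it fell in induced vector cells (-1.17) and rose above the uninduced level in induced shARID1B cells (0.58 ± 0.05, adjusted p = 9.12e-06), the size of the fall being uncertain because the induced vector mean was below 6.75. With a response of 1.5-fold or more as the line, 63 genes were gone and 9 past the start. Over the 15 settings in which classes were recomputed at the same thresholds, LCE1F, EFEMP1 and HSPA2 were gone in 15, PLSCR4 in 14, CHRM2 and NRK in 12 and SPP1 in 11.

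The late cornified envelope genes, which epidermal keratinocytes express, kept part of their rise. LCE2C read 6.04, 6.34 and 6.24 in uninduced, 10.21, 10.38 and 10.23 in induced vector and 8.44, 8.55 and 8.44 in induced shARID1B cells, with 2.27 ± 0.08 left of 4.07 and an uninduced mean below 6.75. LCE2A (1.99 against 3.53) and LCE2B (0.82 against 2.33) were also reduced. These genes lie in 1 cluster and are similar in sequence, so probe sets may read more than 1 of them. Of 22 members of the cornified envelope list 4 rose and 3 fell, and 6 were lower and 0 higher than in induced vector cells. The rises and falls were near the shares over all genes, 15.6% and 15.9%. Against induced vector cells 6.09% of all genes were lower and 9.63% higher. The ligands for lymphocyte receptors included 5 of 13 that rose (ICOSLG, MICA, MICB, ULBP2 and ICAM1) and 2 that fell (PDCD1LG2 and TNFRSF14), with 0 higher and 5 lower than in induced vector cells. ICAM1, the adhesion ligand of LFA-1, kept a full-size rise (2.20 against 2.44), within the width of that class although its difference of -0.24 was called (adjusted p = 0.0086). CD274 (PD-L1) read 6.61, 6.46 and 6.29 in uninduced, 7.17, 7.47 and 7.59 in induced vector and 6.03, 6.38 and 6.37 in induced shARID1B cells. Its remaining change of -0.19 was not called (adjusted p = 0.302) beside a response of 0.96, and both outer groups lay below 6.75. PDCD1LG2 (PD-L2) read 11.14, 11.06 and 10.96 in uninduced, 10.20, 10.27 and 10.29 in induced vector and 8.96, 9.06 and 9.14 in induced shARID1B cells, a change of -2.0 ± 0.06 against -0.80. ULBP1, a ligand of NKG2D, had a remaining change of 0.13 (adjusted p = 0.208) against a response of 0.73.

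Of 19 genes of cholesterol synthesis 14 fell and 0 rose, with a median of -0.49 against -0.33. LSS, lanosterol synthase, read 10.67, 10.54 and 10.74 in uninduced and 9.30, 9.31 and 9.29 in induced shARID1B cells, a full-size change of -1.35, and HMGCS1, which makes HMG-CoA, fell by 1.23 against 1.05. Of 13 smooth muscle contractile genes 11 fell and 0 rose, with a median of -0.63 against -0.39. TAGLN (SM22), an actin-binding protein, read 11.62, 11.68 and 11.74 in uninduced, 10.80, 10.94 and 10.92 in induced vector and 10.42, 10.26 and 10.40 in induced shARID1B cells, without overlap, a change of -1.32 ± 0.06 against -0.80. Of 31 genes of the extracellular matrix 4 (COL4A1, COL4A2, POSTN and TNC) rose and 13 fell, and of its 4 response genes 3 were reduced and 1 gone. DCN (decorin), a collagen-binding proteoglycan that is also in the fibroblast marker list, read 12.38, 12.13 and 12.22 in uninduced, 10.59, 10.62 and 10.71 in induced vector and 11.30, 11.28 and 11.30 in induced shARID1B cells and kept 59.4% of its fall. LOX, the collagen crosslinking enzyme, fell further (-0.97 against -0.43, difference -0.54, adjusted p = 6.22e-05). Of 19 glycolysis genes 10 rose and 3 fell, with HK2, hexokinase 2, reduced (1.29 against 1.81). NOX4, the NADPH oxidase of fibroblasts, kept 31.5% of its rise (0.35 against 1.10). It was counted in the antioxidant list, although an oxidase is not itself an antioxidant. Of the 24 genes in that list 5 rose and 6 fell (5 each with array medians subtracted). Of 22 lysosomal genes 5 rose and 6 fell, a split that became 8 and 6 with array medians subtracted, and NPC1, a cholesterol exporter, kept its rise at full size (1.59 against 1.69). The counts of these lists stand beside 15.6% higher and 15.9% lower over all genes.

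The largest falls over all genes were those of CRHBP, which binds corticotropin-releasing hormone (-3.13 against -2.68), and FABP3, a fatty acid-binding protein. FABP3 read 11.60, 11.50 and 11.45 in uninduced cells, 9.99 on each induced vector array and 8.73, 8.55 and 8.39 in induced shARID1B cells, a change of -2.96 ± 0.08 against -1.53. GAS6, the ligand of the TAM receptors (-2.43 against -1.5), ATP8B1, a phospholipid flippase (-2.67 against -1.81), and NEDD9, a focal adhesion scaffold (-2.09 against -1.01), also fell further than in induced vector cells. CEMIP, a hyaluronan-degrading protein, read 9.42, 9.54 and 9.75 in uninduced, 6.75, 7.01 and 7.11 in induced vector and 8.09, 8.09 and 8.09 in induced shARID1B cells and kept 56.8% of its fall. KIT, the stem cell factor receptor (-2.03 against -2.47), and CRYAB, a small heat shock protein (-1.82 against -2.51), were reduced too.

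Other changes lay outside the 2-fold response. Of the 557 genes at 2-fold or more, 383 belonged to the 548 response genes, and of the other 174 a total of 158 were called in the same direction in induced vector cells at less than 2-fold. A set of 40 genes (0.217% of all) changed by 2-fold or more in induced shARID1B cells, differed from induced vector cells in the same direction, and had a response below 0.5 in size, 36 of them higher. SCG2 (secretogranin II), a precursor of secreted neuropeptides, read 7.18, 7.52 and 7.37 in uninduced, 7.43, 7.45 and 7.56 in induced vector and 9.53, 9.50 and 9.32 in induced shARID1B cells. Its uninduced and induced vector arrays overlapped, and it rose by 2.09 ± 0.09 (adjusted p = 2.26e-08) where the response was 0.12 (adjusted p = 0.343). IL1R1, the receptor for the IL1 ligands above, read 9.92, 9.62 and 9.79 in uninduced, 10.06, 9.92 and 10.11 in induced vector and 11.23, 11.32 and 11.19 in induced shARID1B cells, a rise of 1.47 ± 0.08 against 0.26. ENTPD1 (CD39), an ectonucleotidase of the ENTPD7 family, read 5.74, 5.52 and 5.47 in uninduced, 6.08, 6.03 and 5.90 in induced vector and 7.39, 7.33 and 7.24 in induced shARID1B cells, a rise of 1.75 ± 0.08 against 0.43 from means below 6.75 in both vector groups. The retinoic acid receptor RARB (1.70 against 0.43, vector means below 6.75) and the retinoid-responsive gene RARRES1 (1.63 against 0.37) also rose. The 4 lower genes were LIPH, a lipase (-1.3 against -0.47, to a mean below 6.75), CDC6, described above, whose difference was not called without replicate 2 (-0.56) or 3 (-0.48) of the induced vector cells or replicate 1 (-0.53) or 3 (-0.57) of the induced shARID1B cells, VDR, the vitamin D receptor (-1.06 against -0.11), and PALLD, an actin scaffold (-1.04 against -0.40). Of 26 SWI/SNF subunits measured, ARID1B included, 2 rose and 8 fell, where 15.6% of all genes rose and 15.9% fell. DPF3 had the largest fall, -1.32 against -1.06, and of the 26, 0 were higher and 3 (ARID1B, DPF3 and BCL7B) lower than in induced vector cells. The difference of DPF3, -0.26, was not called without replicate 2 (-0.22) or 3 (-0.24) of the induced vector cells or replicate 1 or 2 (-0.24 in both) of the induced shARID1B cells.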

How the data were processed

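RNA from the 9 samples was hybridised to Affymetrix whole-transcript arrays. An extraction text in the labels names a stranded mRNA sequencing kit, while the labelling text and the platform are those of arrays, and the values were treated as array values. The authors deposited 1 table of normalized log2 values for 33297 probe sets, running from 2.29 to 14.22, made with RMA in oligo per the submitters' processing notes, which also name limma. Versions were not given in the sources used here. RMA sets the arrays to 1 common distribution, so a shift of all transcripts would be removed. The number of arrays limits the precision, since no read depth exists.

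Probe sets were named from GEO's platform annotation: 19460 had 1 symbol, 1754 several and 12083 none, and the last 2 kinds were not used. Where a gene had more than 1 probe set (769 genes), that of highest mean over all arrays stood for it. All 9 arrays entered 1 limma fit (version 3.58.1, R 4.3.3) with a mean per group, 6 residual degrees of freedom (10.45 after moderation) and Benjamini-Hochberg adjustment over 18417 genes. The procedure was also run on simulated data with independent normal noise for each gene. That setting is simpler than these arrays, and no result here rests on it. With 3 arrays against 3, the smallest exact permutation p for a single value is 0.1. Alternatives were a replicate block, the 6 compared arrays alone, a filter on dim genes, averaged probe sets, subtraction of each array's median, an intensity trend, other class widths and response sizes, all named probe sets, the methods' t-test, and each array left out. Promoters (250 bases before the start) came from RefSeq, GRCh38.p14. Figures were drawn with matplotlib 3.10.9 in Python 3.11.15.

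The comparison, gene lists and classes were chosen with earlier results of these data known. The genes named were drawn, not all of them printed, from ARID1B, CDKN1A, CDKN2A, ENTPD7 and SLC31A2; the 15 largest rises and the 15 largest falls among called genes without overlap and with a group mean above the median of all probe sets; the 6 genes of each class and direction with the largest response; the 10 largest each way among those changed 2-fold in induced shARID1B cells with a response below 0.5 in size; and in each list up to 6 members with the smallest p and up to 4 with the largest difference between the induced groups. Members named only to account for a count of 5 or fewer, such as IFIT2 and UBA7, were chosen after their values were seen.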

Additional observations from a re-analysis of the deposited data

How the results depend on the processing

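No remaining change or difference of a named gene changed sign while called under the alternatives run, while the larger of the counts up and down changed sides in the nucleotide synthesis and lysosome lists with array medians subtracted. With the replicate number as a block 5437 genes were called instead of 5800. The numbers were not taken as pairs, since same-numbered arrays of uninduced vector and induced shARID1B cells deviated from their group means with correlations of -0.264, -0.177 and -0.019, and those of induced vector and induced shARID1B cells with 0.322, 0.079 and 0.071. With the block 95.8% of the 548 response genes kept their class. The count of called genes was 5552 of the 11945 genes that passed a filter on dim genes, and 6040 in a fit to the 6 compared arrays. The methods' t-test gave 6691 at an unadjusted threshold and 4465 after Benjamini-Hochberg adjustment. Leaving out each array in turn gave 4639 (without replicate 2 of the induced shARID1B cells) to 6293 called genes, 2287 to 3029 higher, 2352 to 3264 lower and 553 to 563 at 2-fold or more. The remaining changes of named genes kept their direction and side of the threshold in 4332 of 4389 recomputations, with 36 losing and 21 gaining a call, and the differences in 4201 of 4404, with 149 losing and 54 gaining one. Of 900 counts over lists 859 stayed within 1.5 times.

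The classes depended most on their own thresholds, which the alternatives changed by construction. A full-size width of 1.5-fold gave 353 full size, 119 reduced, 57 larger and 8 unresolved. A response of 1.5-fold gave 692 full size, 392 reduced, 63 gone, 9 past the start, 171 larger and 237 unresolved. Without dim genes 46 were unresolved. With each array left out, full size ran from 156 to 207, reduced from 160 to 193, larger from 76 to 94, gone from 5 to 13 (13 without replicate 3 of the induced vector cells), past the start from 1 to 2, unresolved from 73 to 148 (148 without replicate 2 of the induced shARID1B cells), and the genes changed 2-fold in induced shARID1B cells with a response below 0.5 in size from 36 to 44. Of the 548 genes, 78.5% to 99.1% kept their class across the alternatives that changed no class threshold and dropped no dim genes, and how many kept it under the others was not computed. With 3 arrays a group the fit left a median 95% half-width of 0.15, and genes with means below 6.75 have no measured distance from background.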
